A study of Mus musculus with 16 samples.

Results

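The genes described are 10 members of the S100 and annexin families of calcium-regulated proteins in mouse liver: the S100 genes S100a4, S100a6, S100a8, S100a9, S100a10 and S100a11, and the annexins Anxa1, Anxa2, Anxa3 and Anxa5. They were chosen by name, with earlier results of these data known. They are 10 of the 23258 genes in the deposited table, and all 10 are among the 16830 genes that passed the filter on low counts. Liver RNA was depleted of ribosomal RNA and sequenced from C57BL/6 mice in 4 groups: liver-specific miR-33 knockouts on high-fat diet (HFD, n = 5), wild types on HFD (n = 4), liver-specific miR-33 knockouts on chow (n = 4) and wild types on chow (n = 3). The deposited name points to Alb-Cre, a recombinase driven by the albumin promoter in hepatocytes, so that other liver cells would keep the microRNA. The labels do not give the age or sex of the mice, the time on diet, whether wild types carried Cre or whether each library was a separate animal. The p-values therefore measure only the spread between these libraries, which may be technical. The protocol names a small RNA library kit, and its cycle number and read length differ, which was not reconciled. In the deposited table protein-coding genes held 76.4% to 87.1% of the counts of a library. Library n of a group is called replicate n, a number that pairs nothing.

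S100 proteins are small proteins with EF-hand motifs that bind calcium and then partner proteins, and annexins bind acidic membrane phospholipids when calcium rises. Several work as pairs: S100A8 and S100A9 form calprotectin, which is abundant in neutrophils and monocytes and is released as a ligand of TLR4 and RAGE. S100A10 does not respond to calcium and joins annexin A2 in a heterotetramer that binds plasminogen and its activator, and S100A11 binds annexin A1, a ligand of formyl peptide receptors. In healthy liver, hepatocytes carry little of most of these proteins, which are better known from immune, biliary and mesenchymal cells.

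All 6 S100 members lie on mouse chromosome 3 (mm10, which is GRCm38), within 2960.9 kb. S100a4 (chr3:90603771-90606045), S100a6 (chr3:90612882-90624181), S100a8 (chr3:90668978-90670035) and S100a9 (chr3:90692632-90695721) follow each other with gaps of 6.8, 44.8 and 22.6 kb. S100a11 (chr3:93520488-93526287) and S100a10 (chr3:93555080-93564643) lie 2824.8 kb further on and are 28.8 kb apart. Of the annexins, Anxa5 is also on chromosome 3 (chr3:36448923-36475894), Anxa3 is on chromosome 5 (chr5:96793339-96845966), Anxa2 on chromosome 9 (chr9:69453620-69491795) and Anxa1 on chromosome 19 (chr19:20373428-20390944). All 10 are annotated as protein coding in GENCODE M21, and levels per kilobase use the summed length of each gene's annotated exons. RefSeq (GRCm38.p6) gave a promoter window, from 250 bases before to 50 bases after the start site, for 8 of the 10. The windows of S100a4 (chr3:90603520-90603819, plus strand), S100a8 (chr3:90668821-90669120, plus strand), S100a9 (chr3:90695672-90695971, minus strand), S100a11 (chr3:93520246-93520545, plus strand) and Anxa2 (chr9:69453433-69453732, plus strand) are shown because these 5 genes had the largest log2 fold changes on HFD in wild types among the members. They read 5′ to 3′ along the gene, with matches to any of the searched motifs in capitals.
S100a4: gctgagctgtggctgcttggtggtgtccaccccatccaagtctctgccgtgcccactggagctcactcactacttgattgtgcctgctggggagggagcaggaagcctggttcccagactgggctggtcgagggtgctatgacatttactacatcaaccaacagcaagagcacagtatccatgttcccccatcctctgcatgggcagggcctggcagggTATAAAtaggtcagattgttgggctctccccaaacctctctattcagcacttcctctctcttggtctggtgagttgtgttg
S100a8: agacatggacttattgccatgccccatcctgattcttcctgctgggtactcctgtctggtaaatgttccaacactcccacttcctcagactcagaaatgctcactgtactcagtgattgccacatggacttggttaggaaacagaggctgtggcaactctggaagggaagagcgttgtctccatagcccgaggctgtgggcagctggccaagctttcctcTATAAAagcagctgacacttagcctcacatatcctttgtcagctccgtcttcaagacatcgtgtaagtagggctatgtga
S100a9: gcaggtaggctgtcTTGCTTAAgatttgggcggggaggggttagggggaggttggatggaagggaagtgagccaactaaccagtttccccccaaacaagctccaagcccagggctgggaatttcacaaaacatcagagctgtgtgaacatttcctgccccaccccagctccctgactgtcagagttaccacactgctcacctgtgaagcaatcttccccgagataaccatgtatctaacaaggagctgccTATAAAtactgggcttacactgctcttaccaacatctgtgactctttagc
S100a11: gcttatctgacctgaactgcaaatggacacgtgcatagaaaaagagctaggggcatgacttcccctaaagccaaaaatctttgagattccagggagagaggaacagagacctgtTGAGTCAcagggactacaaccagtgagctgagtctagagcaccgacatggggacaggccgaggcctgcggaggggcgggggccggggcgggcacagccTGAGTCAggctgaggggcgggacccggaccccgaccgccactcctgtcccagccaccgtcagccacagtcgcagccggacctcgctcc
Anxa2: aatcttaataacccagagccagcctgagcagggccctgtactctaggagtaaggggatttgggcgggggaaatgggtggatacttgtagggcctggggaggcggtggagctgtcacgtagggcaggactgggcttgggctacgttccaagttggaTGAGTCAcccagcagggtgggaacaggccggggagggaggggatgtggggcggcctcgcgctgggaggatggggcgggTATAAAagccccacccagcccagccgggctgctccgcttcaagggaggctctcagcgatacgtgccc
Motifs were searched on both strands, and no match overlapped another in these windows. The AP-1 letters TGANTCA occurred in 2 of the 8 windows, at 136 and 38 bases before the start site of S100a11 and at 95 bases before that of Anxa2, against 7.81% of 32851 mouse promoter windows of that length. The C/EBP letters TTGCNNAA occurred in 2, at 236 bases before the start of S100a9 and at 143 bases before that of Anxa1, against 10.8% of all windows. A TATA box (TATAAA) was present in 5, those of S100a4, S100a8, S100a9, Anxa1 and Anxa2, against 13.6% of all windows. It began 31 bases before the start of S100a4, 30 before that of S100a8, 17 before that of Anxa2 and at the annotated start (0 bases before it) of S100a9. The NF-kB letters GGGANTTCC occurred in 0 of the 8, against 1.68% of all windows. A match is a string of letters and does not show that a factor binds there.

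Library totals were 15888436 to 29469645 estimated counts. Levels are CPM, counts scaled to a common library total after TMM scaling, and adjusted p-values are from edgeR's quasi-likelihood test, adjusted by Benjamini and Hochberg's method over the 16830 genes. Mir33 was not analysed here, and the genotype labels are taken as given. On the first principal component of all genes, which held 48.5% of the variance, chow libraries lay at 44.5 to 58.1 and HFD libraries at -54.3 to -15.3. HFD knockout replicate 1 stood nearest to the chow libraries at -15.3 and lay apart at 50.2 on the third component, where no other library exceeded 13.7, and chow wild type replicate 3 lay at -48.8 on the second. HFD knockout replicate 1 was below the other 4 HFD knockout libraries for 7 of the 10 members, where 27.6% of the 13439 genes with a mean of at least 1 CPM were below and 25.6% above. Its Anxa2 level was 29% of the mean of the other 4 libraries (23.5 CPM against 81.1 ± 16.4 CPM, SD), while its Anxa3 level was above all 4. The same library held the highest summed markers of its group for monocytes and macrophages (287 CPM), Kupffer cells (338 CPM), endothelial cells (214 CPM) and B and plasma cells (21.4 CPM). Of its B and plasma cell sum, 13.9 CPM came from Jchain alone. The diet difference of each member in knockouts is given with and without this library.

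High-fat diet was accompanied by higher levels of most of the set in knockout livers and of the whole set in wild-type livers. Because the members were chosen with earlier results of these data known, their counts beside those of all genes are descriptions only. The library titles number the chow libraries and the HFD libraries in separate series. The labels do not say what these series stand for, and a difference between them cannot be told apart from diet. In knockouts 7 of the 10 genes rose on HFD (S100a4, S100a6, S100a10, S100a11, Anxa1, Anxa2 and Anxa5), against 17.4% of all genes called higher, and 0 fell, against 16.2% called lower. S100a8, S100a9 and Anxa3 were higher by 0.98, 0.56 and 0.54 on the log2 scale in HFD knockouts without passing. For 6 of the 10 the HFD and chow knockout libraries did not overlap, against 13.5% of all genes fully higher on HFD. In wild types all 10 rose, by 1.48-fold for S100a10 to 15.3-fold for S100a8, and the HFD and chow libraries did not overlap for any of the 10. Among all genes in wild types, 15.2% were called higher, 14.2% were called lower and 18.3% lay fully above the chow libraries. The median log2 fold change of the members was 1.56 in knockouts (all genes -0.01) and 2.65 in wild types (all genes -0.02). Without HFD knockout replicate 1 the count in knockouts was again 7. Scaling by library totals alone shifted the median of all genes to 0.32 in knockouts and 0.24 in wild types. It turned the split of calls in knockouts to 6927 higher and 802 lower (2922 and 2728 with TMM scaling) and in wild types to 4748 and 709 (2564 and 2382). All 10 members stayed above 0 under it in both genotypes, and S100a8 (1.32, edgeR adjusted p = 0.0142) and Anxa3 (0.86, edgeR adjusted p = 0.0084) then also passed in knockouts. In bulk liver a change in the number of cells of a type cannot be told apart from a change in RNA per cell.

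**Figure D1:**
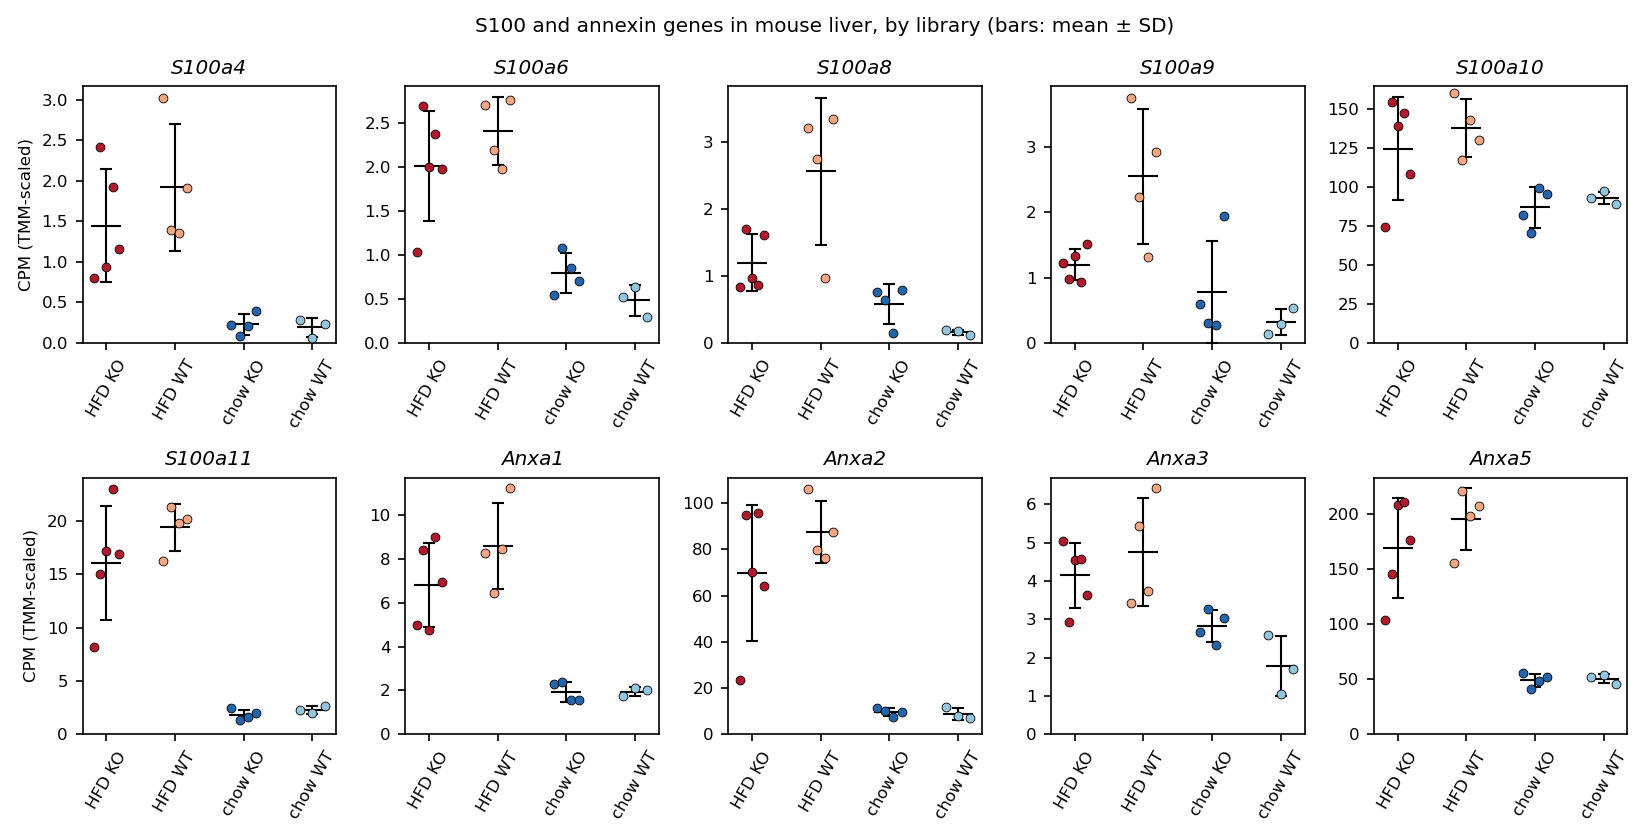
Level of each of the 10 genes in CPM (TMM-scaled, linear axis from 0) in every library of HFD knockout (KO), HFD wild type (WT), chow knockout and chow wild type livers, with horizontal bars for the mean and whiskers for the SD (n = 5, 4, 4 and 3). S100a4, S100a8, S100a11, Anxa1, Anxa2 and Anxa5 separate completely by diet, S100a8 only narrowly, while the S100a9 value of 1 chow knockout library (1.94 CPM) lies among the HFD libraries.

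The calprotectin genes had a smaller fitted diet difference in knockouts than in wild types, a gap that did not pass the interaction test given further on. S100a8 stood at 0.842, 1.70, 0.971, 0.872 and 1.62 CPM in HFD knockouts, against 0.761, 0.646, 0.142 and 0.795 CPM in chow knockouts. In wild types it stood at 3.21, 2.75, 0.969 and 3.35 CPM on HFD, against 0.188, 0.175 and 0.118 CPM on chow. The groups on the 2 diets did not overlap in either genotype, the chow wild types had only 2 to 4 counts per library, and HFD wild type replicate 3 was low, within the range of the HFD knockouts. In knockouts the difference in S100a8 was 0.98 ± 0.41 on the log2 scale (SE) and did not pass (edgeR adjusted p = 0.0699, or 0.0505 with 1.10 without HFD knockout replicate 1). It passed in knockouts without HFD wild type replicate 3, which enters the shared estimate of spread (edgeR adjusted p = 0.0339). S100a8 rose by 3.94 ± 0.57 in wild types (edgeR adjusted p = 7.0e-05).

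S100a9, the other calprotectin subunit, stood at 1.22, 0.987, 1.34, 0.942 and 1.52 CPM in HFD knockouts, against 0.598, 0.302, 0.283 and 1.94 CPM in chow knockouts. Its wild-type values were 3.75, 2.23, 1.31 and 2.92 CPM on HFD, against 0.141, 0.291 and 0.533 CPM on chow. Chow knockout replicate 4 exceeded every HFD knockout library, so those groups overlapped, whereas the wild types were separated by diet. In knockouts the difference in S100a9 was 0.56 ± 0.46 on the log2 scale (edgeR adjusted p = 0.373, and 0.389 at 0.58 without HFD knockout replicate 1). This value rested on chow knockout replicate 4: without it the difference in knockouts was 1.59 and passed (edgeR adjusted p = 0.01). In wild types S100a9 rose by 3.01 ± 0.61 (edgeR adjusted p = 0.00133).

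Genes of neutrophils, which carry much calprotectin, were counted beside these results. Of 12 listed neutrophil markers 11 are in the table and 5 were tested: 1 rose in knockouts on HFD (Mmp8, the neutrophil collagenase) and 2 rose in wild types (Csf3r, the G-CSF receptor, and Mmp8). Mmp8 had few reads and averaged 0.206 CPM in HFD knockouts (0.0936 to 0.314), against 0.0433 CPM in chow knockouts (0 to 0.129). These knockout groups overlapped, and the call was close to the threshold (edgeR adjusted p = 0.0466). In wild types Mmp8 averaged 0.460 CPM on HFD and was at 0 in all 3 chow libraries. No marker of the list was at 0 in every library. The summed level of the list was 34.2 to 64.6 CPM in HFD knockouts and 12.6 to 57.1 CPM in chow knockouts. In wild types it was 44.5 to 96.7 CPM on HFD and 17.5 to 177 CPM on chow, where most of the 177 CPM in replicate 3 came from Lcn2 (175 CPM), which hepatocytes also make. Mmp9 went the other way without passing, at -0.97 on the log2 scale in knockouts and -1.04 in wild types (edgeR adjusted p = 0.0799 and 0.0922). Leaving out Lcn2, Csf3r and Mmp9, a choice made after their values were seen, the other 8 markers summed to 18 to 66 counts in HFD knockouts and 10 to 20 counts in chow knockouts. Scaled, these sums were 0.546 to 2.18 CPM and 0.574 to 0.862 CPM, and they overlapped. In wild types these 8 summed to 30 to 81 counts per library on HFD (1.26 to 2.82 CPM) and 5 to 9 counts on chow (0.296 to 0.423 CPM). Their part in the S100a8 and S100a9 differences was not tested.

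S100a10 and Anxa2, the heterotetramer pair, both rose on HFD in both genotypes. Anxa2 stood at 23.5, 94.8, 70.2, 95.6 and 64.0 CPM in HFD knockouts, against 11.4, 10.1, 7.37 and 9.76 CPM in chow knockouts. In HFD wild types Anxa2 stood at 106, 79.8, 76.3 and 87.4 CPM, against 11.7, 7.80 and 6.92 CPM in chow wild types. Every HFD library exceeded every chow library, and HFD knockout replicate 1 was the only HFD library below 64.0 CPM. Anxa2 rose by 2.84 ± 0.35 on the log2 scale in knockouts (edgeR adjusted p = 5.3e-05, and 3.08 at 3.6e-08 without HFD knockout replicate 1). The rise in wild types was 3.30 ± 0.41 (edgeR adjusted p = 7.9e-05).

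S100a10, already the most abundant member per kilobase of exon on chow, stood at 74.2, 154, 139, 147 and 108 CPM in HFD knockouts, against 82.2, 70.4, 99.4 and 95.3 CPM in chow knockouts. Its wild-type values were 160, 117, 143 and 130 CPM on HFD, against 92.5, 97.1 and 89.1 CPM on chow. In knockouts HFD replicate 1 lay among the chow libraries, and the other 4 HFD libraries lay above all chow libraries. S100a10 rose by 0.52 ± 0.17 on the log2 scale in knockouts (edgeR adjusted p = 0.0294, and 0.68 at 3.6e-04 without HFD knockout replicate 1) and by 0.56 ± 0.20 in wild types (edgeR adjusted p = 0.0426). These calls were close to the threshold: the knockout call was lost without HFD knockout replicate 2, 3 or 4 or chow knockout replicate 1 or 2 (0.43 to 0.49 on the log2 scale). The wild-type call was lost without HFD wild type replicate 1, 3 or 4, chow knockout replicate 1 or any 1 of the 3 chow wild types (0.48 to 0.60).

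The ratio of S100a10 to Anxa2 in CPM per kilobase of exon was lower in all HFD libraries than in any chow library. It was 6.15 ± 2.06 (SD, n = 5) in HFD knockouts, with 9.72 in replicate 1 and 4.73 to 6.10 in the others, against 28.8 ± 9.32 (n = 4) in chow knockouts. Wild types had a ratio of 4.86 ± 0.601 (n = 4) on HFD, against 34.1 ± 8.49 (n = 3) on chow. The lowest chow value was 21.4 and the highest HFD value 9.72. Within a diet the transcripts tracked each other over the 9 HFD libraries, with Pearson's r = 0.93 (exact permutation p = 0.00196, two-sided, 0.0115 adjusted over 6 relations) and Spearman's rho = 0.85 (exact permutation p = 0.00607, adjusted 0.0364). This relation leaned on the extreme libraries. Without HFD knockout replicates 1 and 5, the farthest from the median of S100a10, r was 0.57, and without HFD knockout replicate 1 alone, chosen after the data were seen, it was 0.75 (exact permutation p = 0.0323). As deviations from the genotype means r was 0.93 (permutation p = 6.8e-04). That p is approximate, because the deviations of a genotype sum to 0 and were permuted across both genotypes. Over the 7 chow libraries r was -0.42 (exact permutation p = 0.357, adjusted 0.429) and rho -0.43 (exact permutation p = 0.354, adjusted 0.424), with r = -0.09 without the 2 farthest libraries.

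**Figure D2:**
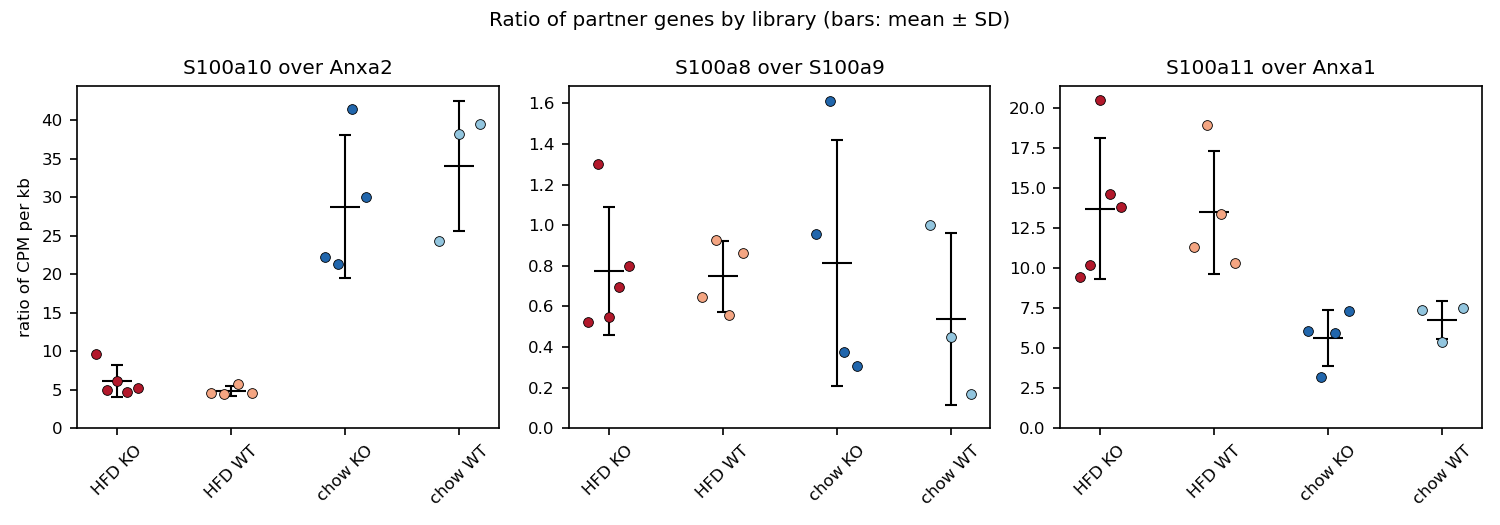
Ratio of CPM per kilobase of exon between partner genes in every library by group (KO, knockout; WT, wild type), with horizontal bars for the mean and whiskers for the SD, on linear axes from 0. S100a10 over Anxa2 is 4.50 to 9.72 in HFD libraries and 21.4 to 41.5 in chow libraries, while S100a8 over S100a9 overlaps in all 4 groups.

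**Figure D3:**
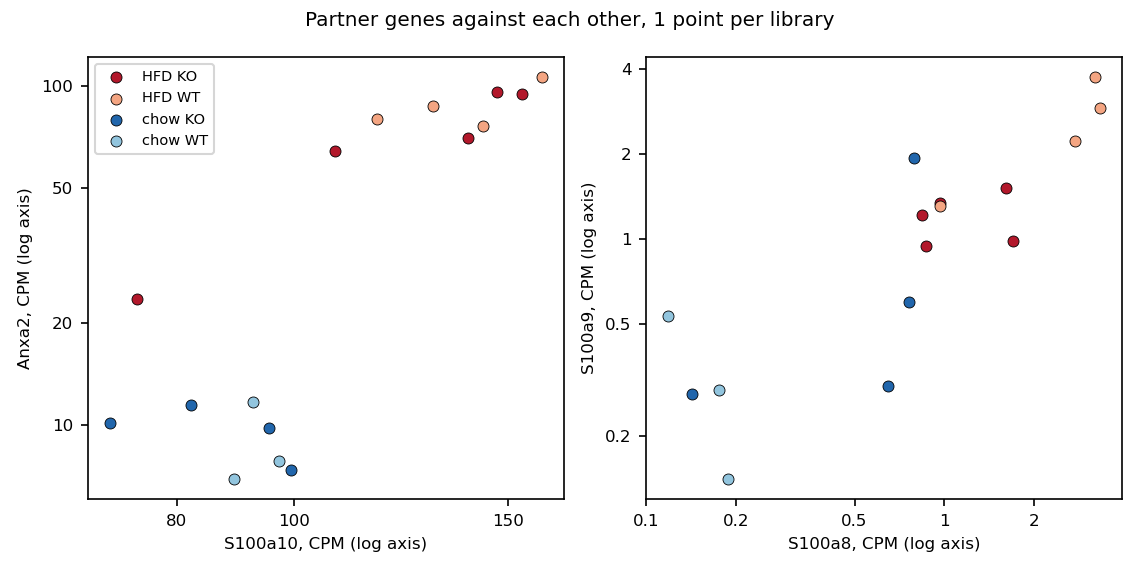
Level of Anxa2 against S100a10 (left) and of S100a9 against S100a8 (right) in CPM on log axes, with 1 point per library coloured by group. On the left the HFD libraries form a rising band from HFD knockout replicate 1 (74.2 and 23.5 CPM) and the chow libraries lie below it. On the right 3 of the 4 HFD wild types stand at the upper end.

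The ratio of S100a8 to S100a9 had no such separation. It was 0.772 ± 0.315 in HFD knockouts and 0.813 ± 0.607 in chow knockouts, and in wild types 0.748 ± 0.175 on HFD and 0.540 ± 0.425 on chow (SD, n = 5, 4, 4 and 3), with overlapping ranges. Over the 9 HFD libraries the calprotectin transcripts had r = 0.86 (exact permutation p = 0.00382, adjusted 0.0115) and rho = 0.78 (exact permutation p = 0.0172, adjusted 0.0517). Without HFD wild type replicates 1 and 4, the farthest from the median of S100a8, r was 0.67. As deviations from the genotype means it was 0.73 (permutation p = 0.0235, approximate for the same reason as above). Without HFD knockout replicate 1, a choice made after the data were seen, r was 0.86. Over the 7 chow libraries r was 0.58 (exact permutation p = 0.153, adjusted 0.23) and rho 0.54 (exact permutation p = 0.236, adjusted 0.375). The chow relation rested on chow knockout replicates 1 and 4, without which r was -0.16.

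S100a11 and its partner Anxa1 rose on HFD in both genotypes. S100a11 stood at 8.24, 15.0, 17.2, 23 and 16.9 CPM in HFD knockouts, against 2.45, 1.34, 1.63 and 1.99 CPM in chow knockouts. Its wild-type values were 16.3, 21.3, 19.8 and 20.2 CPM on HFD, against 2.26, 1.98 and 2.66 CPM on chow. The lowest HFD library, knockout replicate 1, was above every chow library. S100a11 rose by 3.12 ± 0.25 on the log2 scale in knockouts (edgeR adjusted p = 2.1e-07, and 3.30 at 3.3e-09 without HFD knockout replicate 1) and by 3.08 ± 0.28 in wild types (edgeR adjusted p = 1.3e-06). A processed pseudogene, S100a11-ps, is annotated on chromosome 12, and reads shared with it could have been split.

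Anxa1 stood at 4.96, 8.40, 4.77, 8.96 and 6.94 CPM in HFD knockouts, against 2.28, 2.37, 1.56 and 1.55 CPM in chow knockouts. The wild types had 8.26, 6.43, 8.42 and 11.2 CPM on HFD, against 1.74, 2.10 and 2.01 CPM on chow. The diets did not overlap in either genotype. Anxa1 rose by 1.80 ± 0.23 on the log2 scale in knockouts (edgeR adjusted p = 1.4e-05, and 1.91 at 7.2e-06 without HFD knockout replicate 1) and by 2.13 ± 0.26 in wild types (edgeR adjusted p = 1.6e-05). The ratio of S100a11 to Anxa1 per kilobase was 13.7 ± 4.42 in HFD knockouts and 5.65 ± 1.74 in chow knockouts (SD, n = 5 and 4). In wild types it was 13.5 ± 3.83 on HFD and 6.77 ± 1.21 on chow (SD, n = 4 and 3), so that the ranges were separated by diet in both genotypes. Over the 9 HFD libraries S100a11 and Anxa1 had r = 0.56 (exact permutation p = 0.115, adjusted 0.23) and rho = 0.43 (exact permutation p = 0.25, adjusted 0.375). That r was 0.14 without HFD knockout replicates 1 and 4 and 0.25 without replicate 1 alone, the second choice made after the data were seen. Over the 7 chow libraries r was -0.02 (exact permutation p = 0.964, adjusted 0.964) and rho -0.11 (exact permutation p = 0.84, adjusted 0.84), and r was 0.66 without the 2 farthest libraries.

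Of the remaining S100 members, S100a4, which binds non-muscle myosin and marks some macrophages and fibroblasts, rose in both genotypes from very few reads. It ranged over 0.796 to 2.42 CPM in HFD knockouts (17 to 71 counts), against 0.0862 to 0.397 CPM in chow knockouts (2 to 9 counts). In wild types it ranged over 1.35 to 3.02 CPM on HFD (32 to 79 counts), against 0.0582 to 0.282 CPM on chow (1 to 6 counts). The diets did not overlap in either genotype. S100a4 rose by 2.63 ± 0.48 on the log2 scale in knockouts (edgeR adjusted p = 4.0e-04, and 2.80 at 2.1e-04 without HFD knockout replicate 1) and by 3.25 ± 0.56 in wild types (edgeR adjusted p = 3.4e-04). S100a6, calcyclin, ranged over 1.03 to 2.69 CPM in HFD knockouts, against 0.543 to 1.08 CPM in chow knockouts. Its wild-type levels were 1.98 to 2.76 CPM on HFD, against 0.296 to 0.641 CPM on chow. The knockouts overlapped only through HFD knockout replicate 1 at 1.03 CPM and chow knockout replicate 2 at 1.08 CPM. S100a6 rose by 1.34 ± 0.28 on the log2 scale in knockouts (edgeR adjusted p = 0.00145, and 1.51 at 1.7e-04 without HFD knockout replicate 1) and by 2.29 ± 0.35 in wild types (edgeR adjusted p = 1.2e-04).

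Among the 4 annexin members, Anxa5, which binds exposed phosphatidylserine, had the highest level in every group. It averaged 169 ± 45.3 CPM in HFD knockouts (104 to 211), against 49.3 ± 5.96 CPM in chow knockouts (41.6 to 55.6). The wild types averaged 195 ± 28.4 CPM on HFD (155 to 221), against 50.6 ± 3.96 CPM on chow (46.1 to 53.6). The diets were far apart in both genotypes. Anxa5 rose by 1.77 ± 0.18 on the log2 scale in knockouts (edgeR adjusted p = 3.4e-06, and 1.93 at 3.6e-08 without HFD knockout replicate 1) and by 1.95 ± 0.21 in wild types (edgeR adjusted p = 7.1e-06). Anxa3, a further phospholipid-binding annexin, averaged 4.15 ± 0.854 CPM in HFD knockouts (2.93 to 5.05), against 2.83 ± 0.414 CPM in chow knockouts (2.34 to 3.27). Its wild-type mean was 4.76 ± 1.41 CPM on HFD (3.44 to 6.43), against 1.78 ± 0.772 CPM on chow (1.05 to 2.59). The knockouts overlapped and the wild types did not. In knockouts the difference in Anxa3 was 0.54 ± 0.24 on the log2 scale (edgeR adjusted p = 0.091, or 0.147 at 0.48 without HFD knockout replicate 1), and it passed without HFD knockout replicate 2 (edgeR adjusted p = 0.0497), with only the knockout libraries in the fit (0.54, edgeR adjusted p = 0.045) and with library totals only. Anxa3 rose by 1.39 ± 0.29 in wild types (edgeR adjusted p = 0.00152).

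**Figure D4:**
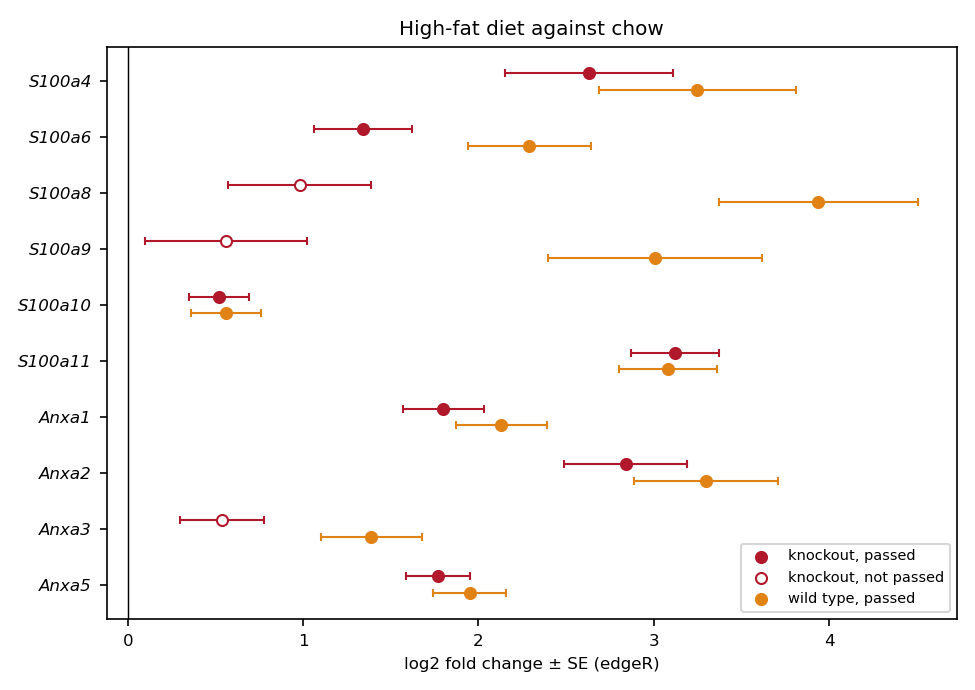
Log2 fold change of HFD over chow with its SE (edgeR) for each gene in knockout (upper of each pair, red) and wild type livers (lower, orange), with filled points for an adjusted p under 0.05. S100a8, S100a9 and Anxa3 in knockouts are the open points, and S100a10 lies near 0.5 in both genotypes.

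Knockout against wild type gave no call among the members on either diet. On HFD all 10 were lower in knockouts, by 0.14 (S100a10) to 1.08 (S100a8 and S100a9) on the log2 scale, with a median of -0.30, and the groups overlapped for every member, where 0.594% of all genes lay fully higher and 0.642% fully lower in knockouts. The log2 fold change lay above 0 for 51.1% of all genes tested. Of the members 0 passed (edgeR quasi-likelihood; 0 by DESeq2 and 0 by voom), against 0.00594% of all genes, and 2 had an unadjusted p under 0.05, S100a8 and S100a9, against 3.81% of all genes. S100a8 averaged 1.2 ± 0.423 CPM in HFD knockouts and 2.57 ± 1.10 CPM in HFD wild types (-1.08 ± 0.35, unadjusted p = 0.0058, edgeR adjusted p = 1). S100a9 averaged 1.2 ± 0.242 CPM in HFD knockouts and 2.55 ± 1.04 CPM in HFD wild types (-1.08 ± 0.41, unadjusted p = 0.0175, edgeR adjusted p = 1). Without HFD knockout replicate 1 these log2 fold changes were -0.99 and -1.08, and those of Anxa2, S100a11, Anxa5 and S100a10 shrank to -0.11, -0.11, -0.08 and -0.00. Markers of several cell types were also lower in HFD knockouts, with 0 passing in any list (edgeR): the log2 fold change was below 0 for 7 of 7 cholangiocyte markers (median -0.66, 2 with an unadjusted p under 0.05), 5 of 5 neutrophil markers (-0.61, 1), 6 of 6 erythroid markers (-0.61, 0), 6 of 8 endothelial markers (-0.36, 4), 9 of 10 stellate cell markers (-0.25, 0) and 10 of 12 monocyte and macrophage markers (-0.23, 0). B and plasma cell markers went the other way, with 5 of 5 above 0 (0.37, 0), as did 5 of 7 T and NK cell markers (0.16, 0) and 8 of 10 hepatocyte markers (0.06, 0). The part of these cell types in the members' values was not tested.

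On chow 7 members were above 0 in the same contrast and 3 below, with a median of 0.17, while 50.1% of all genes were above 0. The groups again overlapped for all 10, where 3.07% of all genes lay fully higher and 2.55% fully lower in knockouts. Here 0 passed (edgeR; 0 by DESeq2 and 0 by voom), against 0.00594% of all genes, and 2 of them, S100a8 and Anxa3, had an unadjusted p under 0.05, against 5.95% of all genes. S100a8 averaged 0.586 ± 0.303 CPM in chow knockouts and 0.160 ± 0.0370 CPM in chow wild types (1.87 ± 0.64 on the log2 scale, unadjusted p = 0.00908, edgeR adjusted p = 0.773). The chow knockout replicate 3 value of 0.142 CPM lay among the wild types. S100a9 averaged 0.781 ± 0.788 CPM in chow knockouts and 0.322 ± 0.197 CPM in chow wild types (1.37 ± 0.66, edgeR adjusted p = 0.846). Without chow knockout replicate 4 its log2 fold change was 0.34. Anxa3 averaged 2.83 ± 0.414 CPM in chow knockouts and 1.78 ± 0.772 CPM in chow wild types (0.66 ± 0.30, unadjusted p = 0.0393, edgeR adjusted p = 0.827). On chow 0 markers passed in any list either (edgeR). The log2 fold change was above 0 for 10 of 10 stellate cell markers (median 0.26, 1 with an unadjusted p under 0.05), 8 of 8 endothelial markers (0.32, 3) and 6 of 6 Kupffer cell markers (0.65, 1). It was also above 0 for 5 of 5 B and plasma cell markers (0.71, 0), 5 of 5 mesothelial markers (0.74, 0) and 10 of 12 monocyte and macrophage markers (0.39, 1). The same held for 5 of 7 T and NK cell markers (0.25, 0) and 3 of 5 neutrophil markers (0.59, 0). Cholangiocyte markers went the other way, with 4 of 7 below 0 (-0.19, 0). Erythroid markers had 3 of 6 above 0 (0.01, 0) and hepatocyte markers 5 of 10 (0.00, 0).

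The difference of the knockout effects between HFD and chow, which equals the difference of the diet effects between knockout and wild type, was tested as an interaction. Of the members 0 passed (edgeR; 0 by DESeq2 and 0 by voom), against 0% of all genes, and 3 had an unadjusted p under 0.05, against 6.60% of all genes. It was -2.96 ± 0.73 on the log2 scale for S100a8 (unadjusted p = 6.9e-04, edgeR adjusted p = 0.44) and -2.45 ± 0.78 for S100a9 (unadjusted p = 0.0056, edgeR adjusted p = 0.664). Anxa3 had -0.85 ± 0.37 (unadjusted p = 0.0341, edgeR adjusted p = 0.72). For S100a9 it was -1.42 without chow knockout replicate 4. The other members lay between -0.95 (S100a6) and 0.04 (S100a11), with SEs of 0.26 to 0.80. The smaller diet differences of S100a8, S100a9 and Anxa3 in knockouts are thus not shown to differ from those in wild types once all genes tested are counted.

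**Figure D5:**
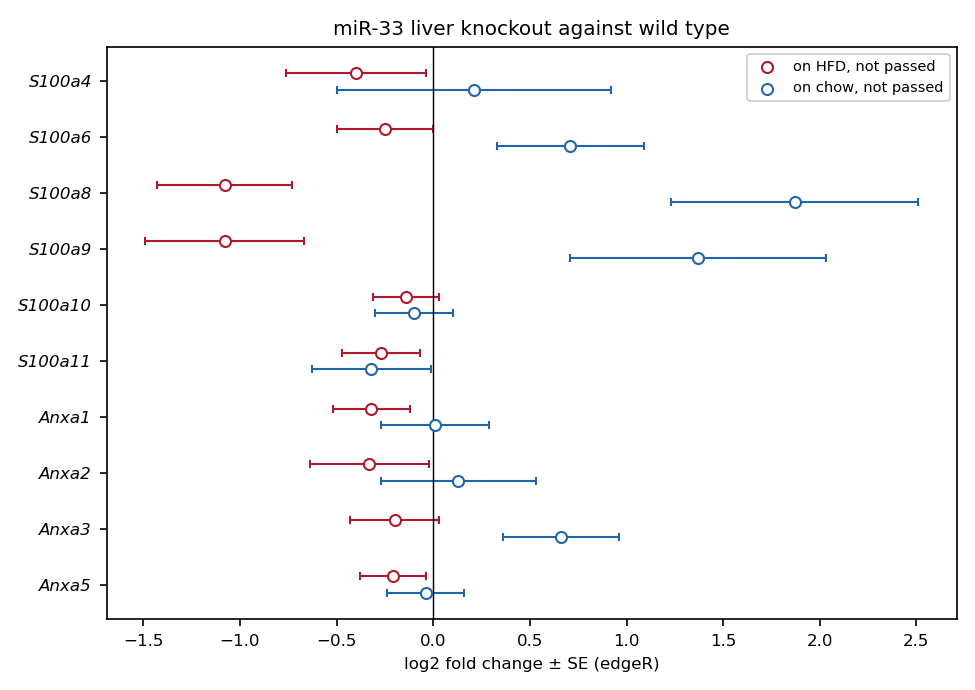
Log2 fold change of knockout over wild type with its SE (edgeR) for each gene on HFD (upper of each pair, red) and chow (lower, blue), where open points mark an adjusted p of 0.05 or more. All 10 lie below 0 on HFD, and S100a8 and S100a9 lie farthest from 0 on both diets, at -1.08 each on HFD and at 1.87 and 1.37 on chow.

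Ranked by group mean, every member was highest in HFD wild types and next in HFD knockouts, and these neighbours overlapped for all 10. The next chow group in that order did not overlap the HFD knockouts for S100a4, S100a8, S100a11, Anxa1, Anxa2 and Anxa5, and overlapped them for the other 4. Chow knockouts exceeded chow wild types in the mean for S100a4, S100a6, S100a8, S100a9, Anxa2 and Anxa3, and the chow wild types had the higher mean for the other 4, with overlapping libraries in each case. Per kilobase of exon, S100a10 at 113 ± 15.1 CPM and Anxa5 at 110 ± 16 CPM led in HFD wild types and differed by less than their SDs. S100a11 followed at 38 ± 4.24 CPM per kilobase and Anxa2 at 23.4 ± 3.6, and the other 6 lay between 4.88 (S100a9) and 1.31 (Anxa3). In chow wild types S100a10 stood alone at 76.7 ± 3.33 CPM per kilobase, followed by Anxa5 at 28.5 ± 2.23, S100a11 at 4.50 ± 0.672 and Anxa2 at 2.36 ± 0.683. S100a8 was the lowest member in chow wild types, at 0.231 ± 0.0534 CPM per kilobase.

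The other S100 and annexin genes of the table had smaller median differences than the members. Members and lists alike were chosen with earlier results of these data known, so this order is a description only. Of 11 other S100 genes listed 4 were in the table and tested, and 1 rose in knockouts and 1 in wild types on HFD. That gene was S100g, calbindin-D9k, with 0 counts in every chow library. It averaged 0.569 ± 0.290 CPM in HFD knockouts, at least 3.57-fold higher than 3 counts per chow knockout library would give, and 0.269 ± 0.109 CPM in HFD wild types, at least 1.64-fold higher than such a floor. S100a13 fell by 0.33 on the log2 scale in knockouts on HFD (edgeR adjusted p = 0.0214) and had -0.26 in wild types (edgeR adjusted p = 0.121), and S100a16 had -0.15 in knockouts and -0.36 in wild types without passing. The median log2 fold change of the 4 was -0.08 in knockouts and -0.17 in wild types, a rank that setting S100g to its bound does not alter. Of 8 other annexins listed 7 were tested: 3 rose in knockouts (Anxa4, Anxa8 and Anxa11) and 2 in wild types (Anxa4 and Anxa13), and 0 fell. Anxa4 averaged 37.5 ± 4.58 CPM in HFD knockouts and 24.3 ± 2.43 CPM in chow knockouts, and its log2 fold change was 0.62 (edgeR adjusted p = 4.0e-04). In wild types Anxa4 rose by 0.44 (edgeR adjusted p = 0.0154), Anxa13 by 1.72 (edgeR adjusted p = 0.00604), and Anxa8 had 2.11 without passing (edgeR adjusted p = 0.0677). Anxa13 and Anxa8 had few reads: Anxa13 averaged 0.772 CPM in HFD wild types and 0.223 CPM in chow wild types. Anxa8 averaged 0.502 CPM and 0.106 CPM in the same groups. The median of the 7 was 0.30 in knockouts and 0.44 in wild types.

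Receptors and binding partners of the members were taken from a list of 15, of which 13 were tested. In knockouts 7 rose and 1 fell on HFD, and in wild types 9 rose and 1 fell, with medians of 0.74 in knockouts and 1.34 in wild types on the log2 scale. Myh9, the non-muscle myosin heavy chain bound by S100A4, averaged 296 ± 17.2 CPM in HFD knockouts and 177 ± 13.3 CPM in chow knockouts (0.74 ± 0.07, edgeR adjusted p = 7.9e-07). In wild types Myh9 averaged 297 ± 18.5 CPM on HFD and 178 ± 4.27 CPM on chow (0.74 ± 0.08, edgeR adjusted p = 4.1e-06). Plat, the tissue plasminogen activator that the S100A10 heterotetramer binds, rose by 2.45 ± 0.31 on the log2 scale in knockouts (edgeR adjusted p = 1.2e-05) and by 3.0 ± 0.36 in wild types (edgeR adjusted p = 1.2e-05). Its substrate plasminogen, Plg, which hepatocytes secrete, fell by 0.45 ± 0.10 in knockouts (edgeR adjusted p = 0.00151) and by 0.65 ± 0.11 in wild types (edgeR adjusted p = 2.5e-04). In knockout against wild type, 0 genes of these 3 lists passed on either diet (edgeR), where an unadjusted p under 0.05 was reached by 1 of 4 other S100 genes, 0 of 7 other annexins and 0 of 13 partners on HFD. On chow these were 0, 1 and 3.

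Markers of some other liver cells also rose on HFD, while those of others did not. Of 12 monocyte and macrophage markers 10 rose in knockouts and 12 in wild types on HFD, and their summed level was 184 to 287 CPM in HFD knockouts, against 81.0 to 99.5 CPM in chow knockouts. In wild types the sum was 212 to 288 CPM on HFD, against 49.8 to 93.4 CPM on chow. Stellate cell and myofibroblast markers rose in 8 of 10 cases in knockouts and 9 of 10 in wild types. Their sum was 394 to 505 CPM in HFD knockouts, against 188 to 304 CPM in chow knockouts, and 401 to 644 CPM in HFD wild types, against 191 to 229 CPM in chow wild types. Of 7 cholangiocyte markers tested, of 9 listed, 2 rose in knockouts and 3 in wild types, with sums of 75.4 to 126 CPM in HFD knockouts against 28.5 to 39.7 CPM in chow knockouts. In wild types that sum was 97.4 to 241 CPM on HFD, against 29.8 to 53.2 CPM on chow. Of 6 Kupffer cell markers 0 rose and 1 fell in knockouts and 2 rose in wild types. Hepatocyte markers fell in 7 of 10 cases in knockouts and 8 of 10 in wild types, with sums of 66336 to 84916 CPM in HFD knockouts against 93510 to 107044 CPM in chow knockouts. The hepatocyte sum in wild types was 66850 to 82356 CPM on HFD, against 95663 to 102206 CPM on chow, led by albumin, so the label of liver tissue held. Of 8 endothelial markers 0 rose and 2 fell in knockouts and 4 rose in wild types, of 6 erythroid markers 0 passed in knockouts (edgeR, 4 at an unadjusted p under 0.05) and 5 rose in wild types, and of 5 mesothelial markers 1 rose in each genotype. Among T and NK cell markers 0 of 7 tested passed in either genotype (edgeR), with 0 at an unadjusted p under 0.05, and among B and plasma cell markers 0 of 5 passed, with 1 at that level in knockouts and 2 in wild types. No marker of these lists was at 0 in every library. What part these cells had in the changes of the 10 genes was not tested.

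The genes whose pattern within both diets was most like each member were taken as those with the largest smaller one of the r over 9 HFD and the r over 7 chow libraries, among 13439 genes. The closest likeness of all was that of Anxa3, for which Irf8 (0.95), Cyth4 (0.91) and Fcer1g (0.90) came first. S100a11 was followed by Sclt1 (0.94), Sema3b (0.88) and Rnd2 (0.85), and Anxa2 by Tmem64 (0.89), Ywhag (0.89) and Rala (0.88). Hmox1, heme oxygenase 1, was nearest to S100a8 (0.87), ahead of Mapre1 (0.79) and Dync1li2 (0.76), and Gm16581 (0.78), AC161763.1 (0.71) and Lsp1 (0.70) to S100a9. For S100a10 these were Nudt4 (0.86), Ptp4a1 (0.82) and Slc16a5 (0.81), and for S100a6 Col4a3bp, Gadd45b and Slc4a4 (0.86 each). Anxa5 had 9030619P08Rik (0.86), D330023K18Rik (0.85) and Ms4a6c (0.83), Anxa1 had Ppfibp1 (0.83), Myo1e (0.81) and Eif4enif1 (0.80), and S100a4 had Tubb6 (0.83), Gm12909 (0.79) and Snapc2 (0.78). No member was among the 3 nearest genes of another. The libraries within a diet differ in genotype and total count, and the largest of 13439 values is high by selection, so these are descriptions only.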

How the data were processed

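Total RNA of mouse liver was sequenced in 16 libraries. Per the labels' protocols, ribosomal RNA was depleted, reads were quality trimmed and aligned with TopHat2, and abundances were computed with Cuffdiff. The protocol's small RNA kit, cycle number and read length were not reconciled with each other. Per the submitters' processing notes, reads were placed on mm10. No source used here gives tool versions, the strand setting or the way counts were estimated. The authors deposited 1 table of estimated counts per gene and library (29.4% to 31.1% of values above 0 in a library are exactly whole), with no row totalling under 10 counts. It was rounded to whole numbers here.

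Genes were filtered with filterByExpr, scaled by TMM and fitted in 1 quasi-likelihood model over all libraries (edgeR 4.0.16, R 4.3.3, 12 residual degrees of freedom, two-sided, Benjamini-Hochberg, threshold 0.05). The fit was also run on simulated data. For knockout against wild type it recovered 36.9% of 1.5-fold changes on HFD and 26.9% on chow, and 7.6% for the difference. At 2-fold these shares were 57.6%, 54.7% and 53.8%, so many changes of such sizes would be missed. CPM was computed from the deposited counts, and log2 CPM for relations used a prior count of 2. DESeq2 1.42.0, voom (limma 3.58.1), other scalings and filters and leaving out libraries were alternatives. No pair of libraries of a group was alike within sampling noise (lowest chi-square per gene 14.7). CT010467.1, a ribosomal RNA gene, took 0.637% to 14.6% of counts. Overlapping genes are annotated at S100a4, Anxa1, Anxa2, Anxa3 and Anxa5, and without strand their reads cannot be told apart.

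All members were named. Of each other list, up to 3 genes with the smallest p in HFD against chow in wild type were named, and cell type markers only beside results they moved with. Anxa11 and Csf3r, Mmp8, Lcn2, Mmp9 and Jchain were named for their values. The members and lists were chosen with earlier results of these data known.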

Additional observations from a re-analysis of the deposited data

Results flagged for a closer look

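A library was set apart when its gap to the nearest other library of its group, divided by the range of the group, was above Dixon's 95% critical value. The rule was applied only to groups of 4 or 5 libraries, so the chow wild types (n = 3) were left out. This gave 75 groups of values (the levels of the 10 genes, the partner ratios and the marker sums of all cell types listed). In them 8 values stood apart, where chance gives about 1 in 20 groups. Of these, 5 belonged to HFD knockout replicate 1. Its S100a10 to Anxa2 ratio was 9.72, with a gap of 0.725 of the range above the other 4 libraries (4.73 to 6.10). Its summed markers were the highest of the HFD knockouts for monocytes and macrophages (287 CPM, gap 0.816 of the range, the next library at 203 CPM), Kupffer cells (338 CPM, gap 0.784), endothelial cells (214 CPM, gap 0.724, the next at 172 CPM) and B and plasma cells (21.4 CPM, gap 0.878, the next at 5.65 CPM). Jchain alone held 13.9 CPM of that B and plasma cell sum. HFD knockout replicate 1 was also the library with the lowest Anxa2 level on HFD. The S100a10 to Anxa2 ratio of HFD wild type replicate 3 was 5.76, with a gap of 0.905 of the range above the other 3 (4.50 to 4.62). On chow, the monocyte and macrophage sum of knockout replicate 1 was 81.0 CPM (gap 0.881 below the other 3 libraries), and the adipocyte sum of knockout replicate 2, over 2 markers in the table, was 9.09 CPM (gap 0.876 below the other 3). No level of a member stood apart in a group of 4 or 5 libraries, and no member's knockout effect was shown to differ between diets.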

How the results depend on the processing

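The 7 members called for HFD against chow in knockouts became 6 to 8 when 1 library was left out, and the 10 in wild types became 9 to 10. The 0 members in the other 3 contrasts was also found under each alternative run. Over all genes, calls for HFD against chow were 5650 in knockouts (4631 to 5784 without 1 library) and 4946 in wild types (3711 to 5102). For knockout against wild type on HFD 1 gene was called, and 3 with no filter, 3 with library totals only, 8 by DESeq2, 2 by voom, 4 with only the groups compared and 1 to 4 without 1 library. On chow 1 was called, and 2 by DESeq2, 0 by voom, 0 with only the groups compared and 0 to 3 without 1 library. For the difference 0 were called, and 13 by DESeq2 and 0 to 4 without 1 library. Anxa3 gained a call in knockouts with only the groups compared (0.54), where S100a10 lost its call (0.52). S100a10 also lost it in wild types with no filter (0.58) and by voom (0.55). Uncalled log2 fold changes near 0 changed sign. For knockout against wild type on chow these were S100a4 (-0.26 to 0.63 without 1 library, with -0.26 and -0.18 as the reversed values), Anxa1 (-0.07 with library totals only, -0.01 by voom, -0.11 to 0.11 without 1 library), Anxa2 (-0.02 to 0.40 without 1 library, -0.02 without HFD knockout replicate 1 and chow wild type replicate 3) and Anxa5 (-0.10 to 0.04). For the difference they were S100a10 (0.02 with library totals only, 0.13 without those 2 libraries, -0.13 to 0.10 without 1), S100a11 (-0.12 to 0.21) and Anxa5 (0.03 without those 2). The causes were not tested. Fitting only the groups compared was not possible for the difference, and for knockout against wild type on chow that fit left S100a4 out. No paired analysis was possible because the labels give no replicate numbers shared between groups. S100a4 had 1 to 9 counts per chow library and S100a8 2 to 18, so their folds rest on few reads.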
